A study of Mus musculus with 15 samples.

Results

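The genes described here are 37 genes of DNA damage repair and the DNA damage checkpoint, chosen by symbol and followed across 15 mouse samples, each measured on 1 oligonucleotide array. Of the 37, 36 were listed on the array under their own symbol and 1, Xrcc2, was not. All 36 reached a signal of at least 100 in at least 3 arrays and were tested among 11902 of 18193 genes. By role, 11 of the 36 act in homologous recombination, 5 in the Fanconi anaemia pathway, 6 in end joining, 2 in mismatch repair, 2 are poly(ADP-ribose) polymerases, 4 sense or mark breaks and 6 belong to the checkpoint.

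A cell that copies its DNA meets broken forks and double strand breaks, and it repairs most of them by homologous recombination, which uses the sister chromatid as a template and is therefore largely limited to S and G2 phase. The Fanconi anaemia pathway unhooks crosslinks between strands, mismatch repair removes copying errors, and end joining rejoins broken ends without a template throughout the cell cycle. In T cells the end joining proteins also complete the rearrangement of the receptor genes. Broken or stalled DNA activates the kinases Atm and Atr, which act through Chek2 and Chek1 to halt the cycle, with the transcription factor p53 as one of their main effectors.

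Every sample lacked p53. The 9 lymphomas (mPTCL 1 to 9) were peripheral T cell lymphomas of C57BL/6 background that developed from p53-deficient T cells transferred into hosts without CD3, the complex through which the T cell receptor signals, and were sorted from liver. Such hosts make no mature T cells of their own but keep B cells and myeloid cells. The 3 resting and 3 activated T cell samples came from 5-week-old p53-null mice of the same strain, and the activated cells had been stimulated in culture by means that the labels leave out. The protocol text for the normal samples names sorting from liver or spleen and injections of PBS or of killed pneumococci, without assigning either to a sample. Whether replicates are separate animals is not stated, so p-values measure only the spread between these samples, which may be technical. The deleted p53 gene is not analysed here.

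Signals were compared on the log2 scale after values under 32 had been raised to 32, which is 5 on that scale, and each gene was read from its probe set with the highest mean. A gene was called when limma's Benjamini-Hochberg adjusted p over all 11902 genes was under 0.05 and the difference was at least 2-fold. The 3 comparisons share arrays pairwise, so their values stand side by side and are not independent.

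Markers of dividing cells set resting cells apart from the other groups. The mean log2 signal of 9 such markers, among them Mki67 and Top2a, was 7.47 to 7.91 in resting cells, 11.57 to 11.66 in activated cells and 9.48 to 12.27 in lymphomas. T cell markers, 7 on the array, averaged 12.87 to 13.11, 12.76 to 12.85 and 8.55 to 11.44 in the same order, with 5 of the 7 called lower in lymphomas than in resting cells and 4 of the 7 lower than in activated cells. Cd3e, a chain of the receptor complex, was at the floor of 5.00 in mPTCL 4 and at 5.69 in mPTCL 3. Neutrophil markers, 10 on the array with 3 to 5 of them at the floor in each normal array, averaged at most 5.97 in normal arrays but 8.32 to 12.17 in mPTCL 1, 2, 4, 5, 8 and 9, and B cell markers at most 8.76 in normal arrays but 10.9 and 11.3 in mPTCL 1 and 5. Correlations between arrays of a group across the tested genes ran from 0.968 to 0.976 in resting cells, 0.970 to 0.974 in activated cells and 0.761 to 0.924 in lymphomas. In sorted bulk samples such as these, fewer cells of a type and less RNA per cell cannot be told apart.

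**Figure D1:**
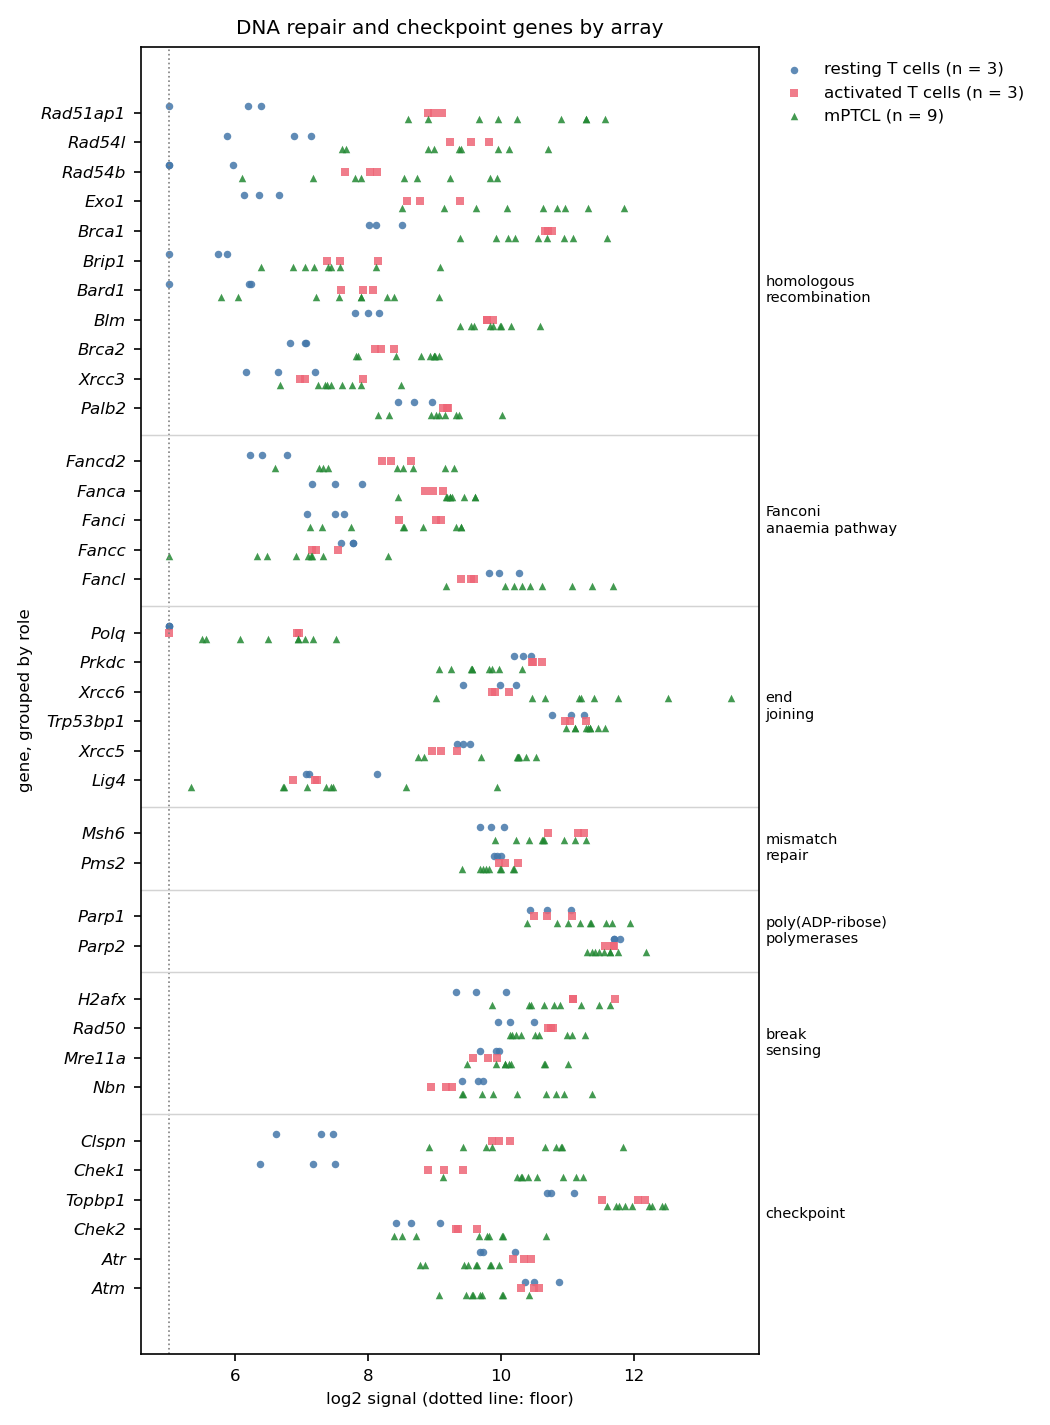
Log2 signal (x axis) of the 36 measured repair and checkpoint genes (y axis, grouped by role and ordered by the difference between activated and resting cells), with 1 point per array for 3 resting, 3 activated and 9 lymphoma (mPTCL) samples and a dotted line at the floor of 5. Most of the homologous recombination genes at the top stand apart between resting cells and the other groups. For Bard1, Palb2 and Xrcc3 the lymphomas overlap the resting arrays, and for Xrcc3 the activated arrays do so too. On the probe sets shown, Parp2, Pms2 and Trp53bp1 sit in nearly the same place in all 3.

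Among the 36 genes, activation of T cells raised those of recombination most. Of the 36 genes, 17 were called higher in activated than in resting cells and 0 lower, against 8.45% of all tested genes called higher and 4.23% called lower. Their median difference was 0.89 on the log2 scale, where that of all tested genes was 0.02. The called genes were 9 of 11 in homologous recombination, 3 of 5 in the Fanconi anaemia pathway, 1 of 2 in mismatch repair, 1 of 4 among break sensing genes and 3 of 6 in the checkpoint. None of the 6 end joining genes and neither of the 2 poly(ADP-ribose) polymerases was called in this comparison. Of 16 other recombination genes tested, described further on, 4 were called higher and 1 lower. An unadjusted p under 0.05 was found for 24 of the 36 genes and for 5090 of all 11902 tested genes. The direction of the 17 calls did not depend on scaling, although centring each array on its median moved the median of all tested genes by -0.26 and turned their split from 1006 higher and 504 lower into 743 and 1176, with 14 of the repair genes then called higher.

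Rad51ap1, which acts in the strand invasion step of recombination, changed most on the probe set used. Its log2 signal was 5.00 (at the floor), 6.19 and 6.39 in the resting arrays, 9.10, 9.00 and 8.90 in the activated arrays, and 8.60, 10.24 and 11.56 as the lowest, median and highest of the 9 lymphomas. Every activated and lymphoma array thus lay above every resting array, and 7 of 9 lymphomas lay above all activated arrays. Activated exceeded resting cells by 3.14 ± 0.38 (SE; adjusted p = 0.00209, limma), at least 8.82-fold because 1 resting array sat at the floor. Its other 3 probe sets gave smaller differences of 2.08, 1.13 and 2.55.

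Rad54l and Rad54b encode motor proteins that remodel the recombination filament. Rad54l read 6.88, 7.14 and 5.87 in resting cells, 9.23, 9.55 and 9.81 in activated cells, and 7.61, 9.37 and 10.71 at the lowest, median and highest lymphoma. The Rad54b signal was 5.00, 5.96 and 5.00 in resting cells, with the values of 5.00 at the floor, then 7.64, 8.14 and 8.03 in activated cells and 6.10, 8.53 and 9.94 across the lymphomas. For both genes the resting arrays lay below all others, and the lymphomas spread on both sides of the narrow activated range. Rad54l was 2.90 ± 0.37 higher in activated than resting cells (7.49-fold, adjusted p = 0.00233) and Rad54b 2.62 ± 0.33 higher (at least 6.13-fold, adjusted p = 0.00227).

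Exo1, a nuclease that trims broken ends and also serves mismatch repair, stood at 6.66, 6.36 and 6.13 in resting cells, 8.58, 9.38 and 8.78 in activated cells and 8.51, 10.63 and 11.85 at the lowest, median and highest lymphoma. Its groups did not overlap between resting cells and either other group, and activated cells were 2.53 ± 0.28 higher (5.77-fold, adjusted p = 0.0015), against 1.90 on its second probe set and 0.32 on another that was at the floor in 9 arrays. Brca1, the ubiquitin ligase that commits breaks to recombination, gave 8.51, 8.12 and 8.02 in resting cells, 10.67, 10.77 and 10.71 in activated cells and 9.37, 10.56 and 11.60 across the lymphomas. The 3 activated values of Brca1 lay within 0.10 of each other and far above the resting ones, a difference of 2.50 ± 0.16 (5.66-fold, adjusted p = 0.000231). Its other 3 probe sets differed by 3.17, 0.36 and 2.43.

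Brca2, a mediator of homologous recombination, rose less. It measured 7.06, 7.05 and 6.82 in resting cells, 8.38, 8.19 and 8.10 in activated cells, and 7.81, 8.93 and 9.07 at the lowest, median and highest lymphoma. Its groups were apart in the normal cells, and 7 of 9 lymphomas exceeded all activated arrays. The difference between activated and resting cells was 1.25 ± 0.20 (2.37-fold, adjusted p = 0.00498). Genes of their partners were also called: the helicase gene Brip1 was 2.16 ± 0.33 higher, Bard1, which pairs with Brca1, 2.05 ± 0.38, and Blm, the Bloom syndrome helicase, 1.84 ± 0.15. Palb2, which bridges Brca1 and Brca2, differed by 0.47 (95% interval 0.06 to 0.88) and Xrcc3, which also acts in recombination, by 0.64 (-0.26 to 1.55), and neither passed the test.

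Fancd2, which pairs with Fanci in the clamp that marks crosslinked DNA, read 6.40, 6.22 and 6.78 in resting cells, 8.21, 8.34 and 8.65 in activated cells and 6.60, 8.43 and 9.29 at the lowest, median and highest lymphoma. Activated cells lay wholly above resting cells, by 1.94 ± 0.24 (3.82-fold, adjusted p = 0.00225), whereas 1 lymphoma fell among the resting values. Its clamp partner Fanci was 1.45 ± 0.26 higher in activated cells and Fanca, of the complex that modifies the clamp, 1.47 ± 0.24, a call lost with the mean of its probe sets (0.75, adjusted p = 0.217). The remaining core complex genes did not pass: Fancl differed by -0.51 (adjusted p = 0.0414, short of 2-fold) and Fancc by -0.40 (95% interval -0.90 to 0.09). The other 2 probe sets of Fancc gave -0.15 and 0.35.

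Msh6, the mismatch recognition subunit for single-base errors, gave 10.04, 9.85 and 9.68 in resting cells, 10.71, 11.25 and 11.16 in activated cells and 9.91, 10.64 and 11.28 at the lowest, median and highest lymphoma. The normal groups were apart, with activated cells 1.18 ± 0.17 higher (2.27-fold, adjusted p = 0.00368). Pms2, the mismatch repair endonuclease subunit, differed by 0.15 (-0.11 to 0.42). H2afx, listed today as H2ax, is the histone variant phosphorylated around breaks. It measured 9.33, 10.07 and 9.62 in resting cells, 11.08, 11.08 and 11.71 in activated cells and 9.86, 10.80 and 11.63 across the lymphomas. Activated cells were 1.62 ± 0.25 higher for H2afx (3.07-fold, adjusted p = 0.00434) without overlap, while mPTCL 4 lay in the resting range.

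Among checkpoint genes, Clspn, the adaptor through which Atr activates Chek1, read 7.29, 7.47 and 6.62 in resting cells, 9.86, 9.98 and 10.13 in activated cells and 8.91, 10.66 and 11.83 at the lowest, median and highest lymphoma. It was 2.86 ± 0.25 higher in activated than resting cells (7.27-fold, adjusted p = 0.000691). Chek1, the effector kinase, measured 7.50, 7.16 and 6.37 in resting cells, 8.90, 9.43 and 9.14 in activated cells and 9.13, 10.41 and 11.24 across the lymphomas. The 3 groups of Chek1 thus followed each other upward, with only mPTCL 4 inside the activated range, and activated cells were 2.14 ± 0.33 above resting ones (4.42-fold, adjusted p = 0.00459). Topbp1, which switches Atr on, was 1.07 ± 0.20 higher (adjusted p = 0.00861), a call that fell short of 2-fold without resting array 1 (0.99), activated array 2 (0.94) or activated array 3 (1.00). The call was also lost with the mean of its probe sets (0.53, adjusted p = 0.152) and with median centring (0.79). Its second probe set, at the floor in 4 arrays, differed by -0.01.

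The kinases at the head of the checkpoint moved little on activation. Atm read 10.36, 10.88 and 10.49 in resting cells and 10.57, 10.30 and 10.50 in activated cells, a difference of -0.12 (95% interval -0.49 to 0.25). Atr read 9.68, 10.21 and 9.73 against 10.18, 10.45 and 10.35, a difference of 0.45 (0.05 to 0.85, adjusted p = 0.084). The groups overlapped for both. Chek2, the effector of Atm, read 8.42, 8.65 and 9.08 in resting cells and 9.32, 9.63 and 9.35 in activated cells, a difference of 0.72 (0.22 to 1.21, adjusted p = 0.0414) that was short of 2-fold although the groups were apart.

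Of the end joining genes, Xrcc6, Xrcc5, Prkdc and Trp53bp1 gave differences near 0 on the probe sets used. Xrcc6, the Ku70 subunit that rings broken ends, read 9.43, 10.22 and 9.99 in resting and 9.90, 10.13 and 9.87 in activated cells, a difference of 0.09 (95% interval -0.42 to 0.60). Its partner Xrcc5, the Ku80 subunit, differed by -0.30 (-0.65 to 0.05). Prkdc, the DNA-dependent kinase recruited by Ku, read 10.20, 10.33 and 10.45 against 10.46, 10.48 and 10.61, a difference of 0.19 (-0.05 to 0.44). These intervals exclude a 2-fold change in either direction. The ligase gene Lig4 differed by -0.33 (-1.15 to 0.48), Trp53bp1, which shields ends from resection, by 0.07 (-0.29 to 0.42), and Polq, the polymerase of the alternative end joining route, by 1.30 (0.03 to 2.56, adjusted p = 0.11), with all resting arrays and 1 activated array at the floor. Without activated array 1, Polq was called higher (1.94, adjusted p = 0.00371).

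Parp1, which senses strand breaks and builds poly(ADP-ribose) chains there, read 10.68, 11.05 and 10.44 in resting cells and 10.50, 11.07 and 10.69 in activated cells, a difference of 0.03 (95% interval -0.46 to 0.52). Its relative Parp2 differed by -0.08 (-0.26 to 0.11). Of the complex that first binds a break, Rad50 differed by 0.55 (0.20 to 0.91, adjusted p = 0.032), Mre11a, listed today as Mre11, by -0.08 (-0.42 to 0.26) and Nbn by -0.47 (-0.83 to -0.11, adjusted p = 0.0566), and none reached 2-fold. As to limits, a fit of all 15 arrays, in which the spread of the lymphomas enters, called 10 of the 36 genes higher instead of 17. Bard1, Brca2, Exo1, Fancd2, Fanci, Msh6 and Rad54b were the calls it lost.

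**Figure D2:**
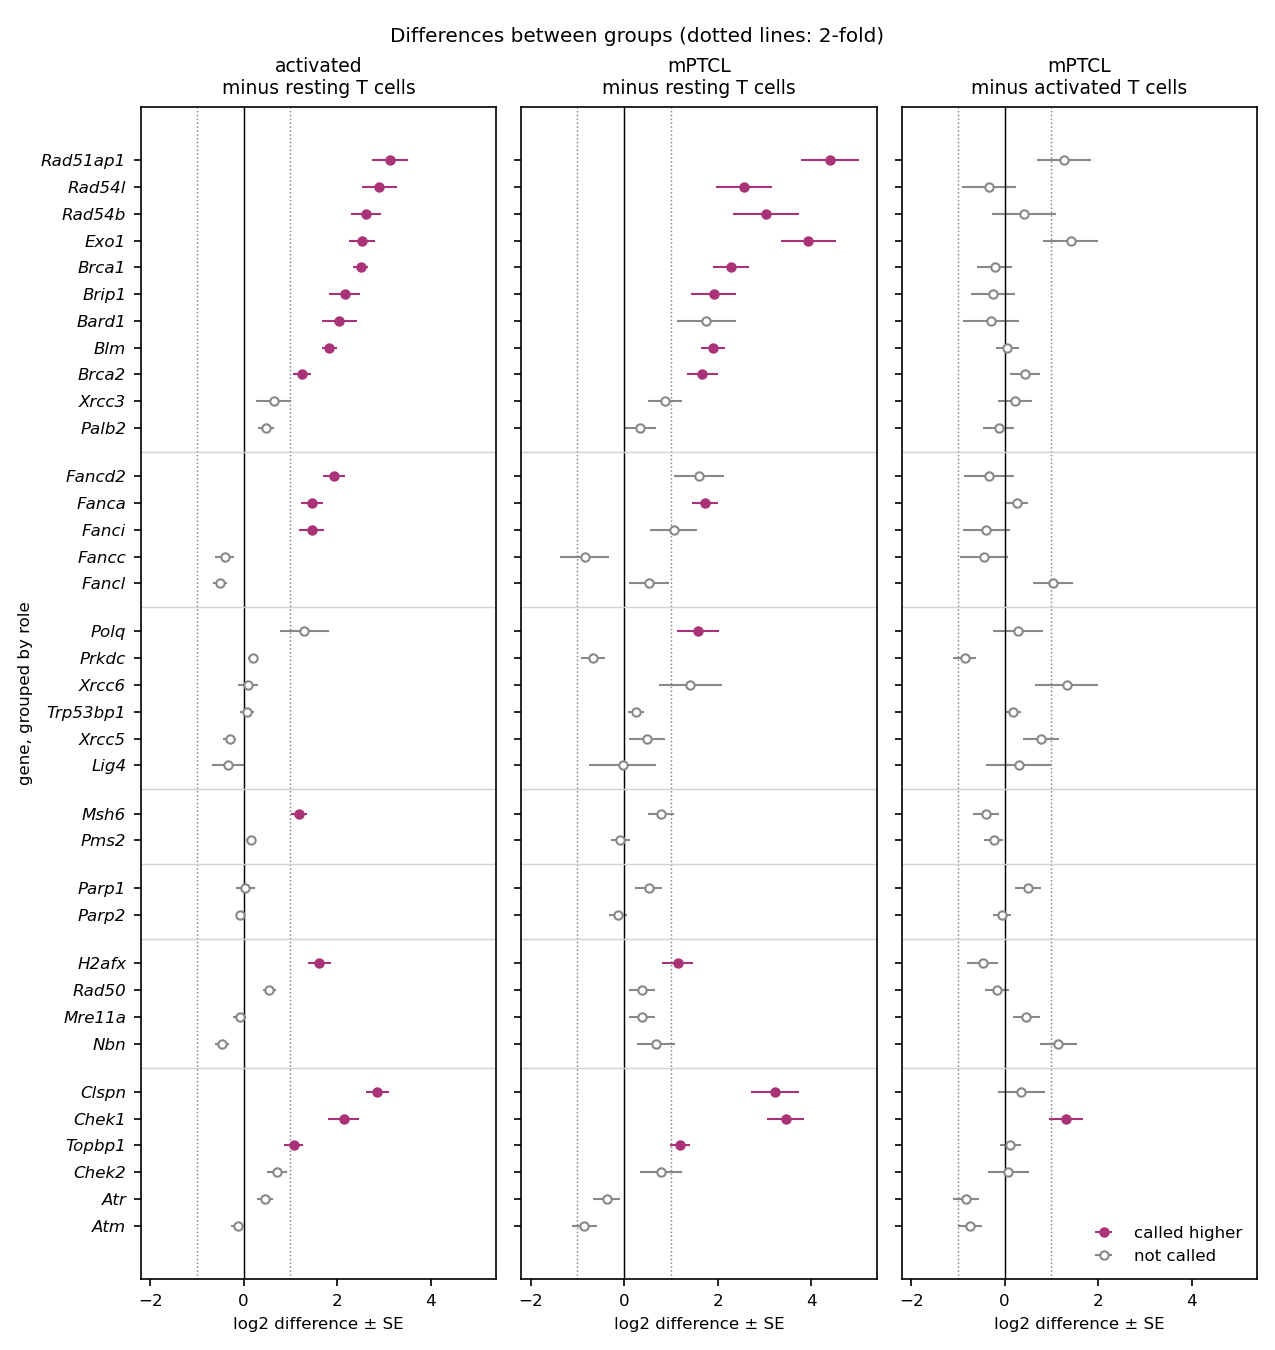
Log2 differences (x axis, points with bars of ± 1 SE from limma) of the 36 genes (y axis, grouped by role) in 3 panels for activated minus resting T cells, lymphomas (mPTCL) minus resting T cells and lymphomas minus activated T cells, with filled points for called genes and dotted lines at 2-fold. The left panel holds 17 filled points, the middle panel 14 and the right panel 1, Chek1.

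The genes that rose together were also compared in their promoters, the 250 bases before the RefSeq start in build GRCm38.p6, which were given for 29 of the genes. The motifs searched on both strands were the E2F sites TTTGGCGC, TTTCCCGC, TTTCGCGC and TTTGCCGC, the cell cycle homology region (CHR) sites TTTGAA and TTCGAA, and the CCAAT box. Matches of different motifs did not overlap in these genes. E2F proteins are transcription factors of the entry into S phase, and the CCAAT box binds NF-Y. An E2F site was found in 3 of the 13 genes called higher in activated cells (Bard1, Brca2 and Topbp1), in 2 of the 16 others (Chek2 and Xrcc6) and in 2.16% of all 27025 genes in the promoter table. The sites of these 5 genes are shown because they are the only exact matches among the 29, each in 60 bases on the strand of the gene with the match in capitals.
Bard1, chr1:71103148-71103207, minus strand: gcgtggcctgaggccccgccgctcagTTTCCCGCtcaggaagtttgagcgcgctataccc
Brca2, chr5:150522427-150522486, plus strand: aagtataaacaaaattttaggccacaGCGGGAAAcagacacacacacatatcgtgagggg
Topbp1, chr9:103305172-103305231, plus strand: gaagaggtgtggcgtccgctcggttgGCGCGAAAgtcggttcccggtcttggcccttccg
Chek2, chr5:110839805-110839864, plus strand: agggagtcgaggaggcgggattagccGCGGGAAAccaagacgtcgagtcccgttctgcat
Xrcc6, chr15:82016297-82016356, plus strand: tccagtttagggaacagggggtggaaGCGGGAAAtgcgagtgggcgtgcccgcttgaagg

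In Bard1 the letters TTTCCCGC run with the gene, 209 bases before the start, and in the other genes the site lies on the opposite strand, 168 bases before the start in Brca2, 129 in Topbp1, 152 in Chek2 and 46 in Xrcc6. Chek2 and Xrcc6 carry the same 8 letters as Brca2 but were not called on activation. CCAAT boxes were found in 8 of the 13 called genes, 7 of the 16 others and 37.5% of all genes, and CHR sites in 1, 2 and 19.6%. Brip1 and Clspn, chosen for display after their matches were seen, carry 3 and 2 boxes close to the start, read here as ATTGG because they lie on the opposite strand. Genes not called on activation carry as many, with 6 boxes in Xrcc3, 3 in Pms2 and 2 each in Chek2 and Mre11a. The last 120 bases before the start are shown, with the boxes in capitals.
Brip1, chr11:86201194-86201313, minus strand: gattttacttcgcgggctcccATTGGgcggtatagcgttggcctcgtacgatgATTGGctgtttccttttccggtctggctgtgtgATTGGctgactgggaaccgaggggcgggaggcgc
Clspn, chr4:126556860-126556979, plus strand: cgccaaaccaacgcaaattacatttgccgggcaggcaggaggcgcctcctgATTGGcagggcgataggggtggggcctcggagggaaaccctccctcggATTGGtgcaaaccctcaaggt
These matches describe the letters in the windows only.

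In lymphomas, too, most recombination genes among the 36 stood above resting cells, in a comparison that uses the same resting arrays. Of the 36 genes, 14 were called higher and 0 lower in lymphomas, against 7.03% of all tested genes called higher and 6.84% called lower, and the median differences were 0.96 and -0.02. The calls were 8 of 11 in homologous recombination, 1 of 5 in the Fanconi anaemia pathway (Fanca), 1 of 6 in end joining (Polq), 0 of 2 in mismatch repair, 0 of 2 among the polymerases of poly(ADP-ribose), 1 of 4 among break sensing genes (H2afx) and 3 of 6 in the checkpoint. Of 16 other recombination genes tested, 3 were called higher and 1 lower. An unadjusted p under 0.05 was reached by 20 of the 36 and by 3940 of all 11902 tested genes. Bard1, Fancd2, Fanci and Msh6, called in activated cells, were not called here, and Polq was called here but not there. The test of lymphomas against activated cells, given further on, bears on that difference.

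On the probe sets used, the largest differences from resting cells were those of Rad51ap1, at 4.41 ± 0.61 (SE; at least 21.2-fold, adjusted p = 0.00056, limma), and Exo1, at 3.94 ± 0.59 (15.4-fold, adjusted p = 0.000861). Chek1 followed at 3.46 ± 0.39 (11.0-fold, adjusted p = 0.000188), then Clspn at 3.22 ± 0.51 (9.31-fold), Rad54b at 3.04 ± 0.70 (at least 8.21-fold) and Rad54l at 2.56 ± 0.60 (5.91-fold). For all of these genes the 9 lymphomas lay above the 3 resting arrays. Brca1 was 2.28 ± 0.39 higher, Brip1 1.92 ± 0.48, Blm 1.90 ± 0.26, Fanca 1.72 ± 0.27, Brca2 1.67 ± 0.33 and Topbp1 1.19 ± 0.22, again with no lymphoma among the resting values.

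Some of these sizes and calls rest on a probe set or on 1 resting array. The other 3 probe sets of Rad51ap1 differed by 2.37, 0.74 and 3.06 and the other 2 of Exo1 by 1.97 and 0.27, and with the mean of probe sets the differences were 2.65 and 2.06, still called but below that of Rad54b. The call of Rad54b was lost without resting array 1 or 3 (adjusted p = 0.0625 and 0.0621), that of Rad54l without array 3 (0.0826) and that of Brip1 without array 1 or 3 (0.096 and 0.0562). Fanca was not called with the mean of its probe sets (0.83, adjusted p = 0.0911). The other 3 probe sets of Brca1 differed by 2.80, 1.19 and -0.45, so 1 of them ran the other way, although the call of Brca1 was kept under every alternative.

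H2afx and Polq were called by a narrower margin. H2afx was 1.14 ± 0.34 higher (2.21-fold, adjusted p = 0.0334), with 8 of 9 lymphomas above the resting arrays, and its adjusted p rose to 0.161, 0.0651 and 0.12 without resting array 1, 2 or 3 and to 0.0517 without mPTCL 2. Polq sat at the floor in all resting arrays and between 5.49 and 7.52 in lymphomas, at least 3.00-fold higher (adjusted p = 0.0262), a call that was lost at a floor of 64 (difference 0.69, adjusted p = 0.166) and without any 1 resting array (adjusted p = 0.0943 to 0.0967).

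Bard1 and Fancd2 differed by over 2-fold and missed the adjusted p. Bard1 differed by 1.76 (95% interval 0.40 to 3.11, adjusted p = 0.0683), with mPTCL 4 and 7 among the resting values, and Fancd2 by 1.61 (0.44 to 2.77, adjusted p = 0.055), with mPTCL 4 alone there. Fanci differed by 1.06 (-0.03 to 2.15) and Msh6 by 0.79 (0.20 to 1.37, adjusted p = 0.0601). Palb2, Xrcc3, Chek2, Nbn, Rad50, Mre11a, Fancl, Xrcc5, Trp53bp1, Pms2, Parp2 and Lig4 were not called either, with differences from -0.14 for Parp2 to 0.87 for Xrcc3. Fancc, of the Fanconi core complex, read 7.76, 7.78 and 7.58 in resting cells, 7.16, 7.21 and 7.54 in activated cells and 5.00 (at the floor, mPTCL 7), 7.10 and 8.30 (mPTCL 9) at the lowest, median and highest lymphoma. On the probe set used, it lay below every resting array in 8 of 9 lymphomas and below all 6 normal arrays in 7. The difference of -0.85 from resting cells (95% interval -1.96 to 0.26, adjusted p = 0.27) did not pass the test. The other 2 probe sets of Fancc differed by -0.01 and -0.52.

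Parp1 ran from 10.39 in mPTCL 4 through a median of 11.33 to 11.94 in mPTCL 8. Its lymphomas overlapped the resting arrays, with a difference of 0.53 (-0.09 to 1.15) from the probe set used. The other 3 probe sets of Parp1 differed by 0.70, 1.46 and -0.41, so they disagree on its size and, for 1 of them, on its direction. Chek2 ran from 8.39 in mPTCL 5 through 9.79 to 10.68 in mPTCL 8, on both sides of the resting arrays.

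The count fell when a resting array was left out and rose to 18 with array weights. It was 9 without resting array 3, 10 without array 1 and 12 without array 2, and 13 to 16 without any 1 lymphoma. The count stayed at 14 both without the 6 lymphomas rich in neutrophil markers and without the 2 rich in B cell markers, with Msh6 gained and Polq lost in the first of these.

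Between lymphomas and activated cells, 1 of the 36 genes passed the test. Chek1 was called higher in lymphomas and 0 genes were called lower, against 7.04% of all tested genes called higher and 8.28% called lower. An unadjusted p under 0.05 was reached by 8 of the 36 and by 4243 of all 11902 tested genes, so the share was lower among the 36. The median difference of the 36 genes was 0.10 and that of all tested genes -0.08. The split of all genes depends on scaling: 838 higher and 986 lower became 1515 and 504 when arrays were centred on their medians, which moved the median of all genes by 0.27, and 2 of the 36 genes were then called higher and 0 lower. Dividing cell markers gave 0 of 9 calls in this comparison.

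Chek1 was 1.32 ± 0.37 higher in lymphomas than in activated cells (2.49-fold, adjusted p = 0.0233). Of the 9 lymphomas, 8 lay above all activated arrays, and mPTCL 4, at 9.13, lay among them. The probe set used may match several transcripts, and another of the 5 probe sets of Chek1, whose name does not mark it as shared, gave a like difference of 1.26 (adjusted p = 0.0505). The call was also lost without activated array 1, 2 or 3 (adjusted p = 0.114, 0.0623 and 0.089), with differences of 1.19 to 1.45.

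Prkdc, Atr and Atm ran the other way without reaching 2-fold. Prkdc lay between 9.06 in mPTCL 6 and 10.32 in mPTCL 3 with a median of 9.56, so that all 9 lymphomas were below every activated array and 8 of 9 below every normal array. Its difference from activated cells was -0.86 ± 0.25 (1.81-fold lower, adjusted p = 0.0294) and from resting cells -0.66 (95% interval -1.21 to -0.11, adjusted p = 0.0871). Atr lay between 8.78 in mPTCL 8 and 9.98 in mPTCL 9 with a median of 9.62, again below every activated array, at -0.83 ± 0.27 (adjusted p = 0.0475). The other 2 probe sets of Atr differed by 0.13 and 0.22 from activated cells, in the opposite direction, so its value rests on the probe set.

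Atm lay between 9.07 in mPTCL 6 and 10.42 in mPTCL 3 with a median of 9.68, and 8 of 9 lymphomas were below all normal arrays. It differed by -0.73 ± 0.26 from activated cells (adjusted p = 0.0588) and by -0.85 ± 0.26 from resting cells (adjusted p = 0.0405). Its second probe set read 10.26, 10.40 and 10.18 in resting cells, 10.28, 10.41 and 10.74 in activated cells and 8.18, 8.97 and 9.55 at the lowest, median and highest lymphoma. On that probe set all 9 lymphomas lay below all 6 normal arrays, by means of 1.31 and 1.51. With the mean of both probe sets, Atm was called lower in lymphomas against resting cells (-1.08, adjusted p = 0.00633) and against activated cells (-1.12, adjusted p = 0.00451). Without the 6 lymphomas rich in neutrophil markers the differences from activated cells were -0.98 for Prkdc, -0.77 for Atm and -0.95 for Atr, with adjusted p of 0.102, 0.173 and 0.067 over 3 lymphomas.

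For the recombination genes the spread among lymphomas bounds what can be said about the difference from activated cells. Brca1 differed by -0.22 (95% interval -1.03 to 0.60), Brca2 by 0.43 (-0.27 to 1.12), Blm by 0.06 (-0.46 to 0.59), Topbp1 by 0.12 (-0.36 to 0.60) and Clspn by 0.36 (-0.72 to 1.43). On the probe sets used, the intervals of Blm and Topbp1 exclude a 2-fold difference and the others reach it in 1 direction. The second probe set of Topbp1, at the floor in 4 arrays, differed by 1.79, so for Topbp1 the exclusion rests on the probe set. The second probe set of Clspn, not at the floor in any array, was over 2-fold higher in lymphomas. The other 3 probe sets of Brca1 gave -0.37, -0.81 and -1.25. Fancd2 differed by -0.33 (-1.48 to 0.82), Rad54l by -0.34 (-1.58 to 0.90) and Rad54b by 0.42 (-1.06 to 1.90), intervals that also reach 2-fold. Exo1 and Rad51ap1 gave 1.41 (0.14 to 2.69, adjusted p = 0.104) and 1.27 (0.02 to 2.52, adjusted p = 0.136), with 7 of 9 lymphomas above all activated arrays for each on the probe set used. The other probe sets gave 0.07 and -0.05 for Exo1 and 0.29, -0.39 and 0.52 for Rad51ap1, so these values rest on the probe set. Msh6 differed by -0.40 (-0.99 to 0.19), H2afx by -0.47 (-1.19 to 0.25), Parp1 by 0.50 (-0.12 to 1.12) and Chek2 by 0.08 (-0.88 to 1.03).

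Nbn, whose protein joins Mre11 and Rad50 and recruits Atm to breaks, had all 9 lymphomas above the activated arrays, at a difference of 1.15 (0.28 to 2.02, adjusted p = 0.059) that missed the test. It was called higher in 6 of 27 alternative analyses. Fancl gave 1.04 (0.13 to 1.94, adjusted p = 0.095) and was called higher without the lymphomas rich in neutrophil markers (adjusted p = 0.0425) or in B cell markers (0.0257). Xrcc5 gave 0.78 (-0.05 to 1.61) and was called only without the former (1.21, adjusted p = 0.0156), where the lowest lymphomas, mPTCL 4 and 5, drop out. The count of genes called higher was 3 and 2 in these analyses, 3 without mPTCL 4 or 5, 2 without mPTCL 7, and 0 without any 1 activated array.

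**Figure D3:**
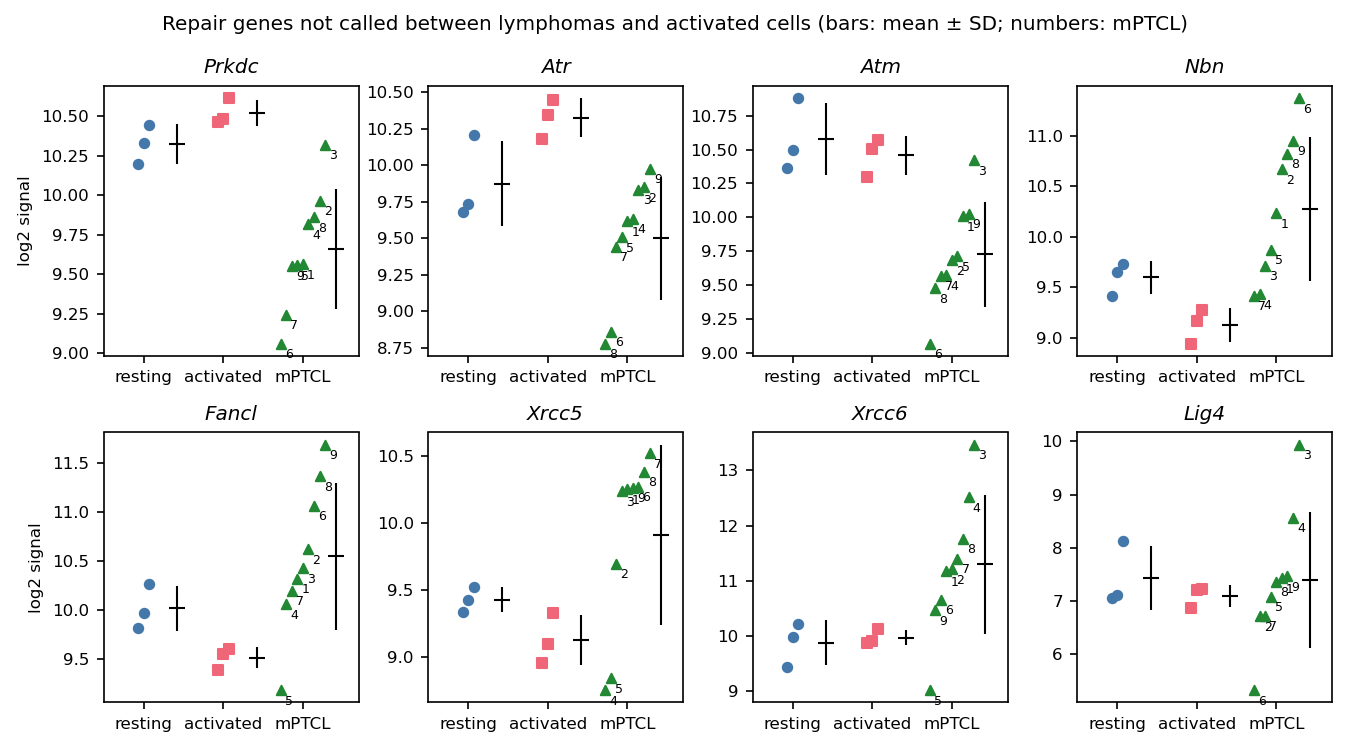
Log2 signal (y axis) of 8 genes that were not called between lymphomas and activated T cells, by group (x axis), with 1 point per array sorted by value within its group, the lymphoma's number beside its point and a bar for the mean ± SD (n = 3, 3 and 9). Prkdc and Atr lie below all activated arrays in every lymphoma, Nbn lies above them, and Xrcc6 and Lig4 run to their highest values in mPTCL 3 and 4.

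Lymphomas varied among themselves more than normal arrays did. The median SD of the 36 genes was 0.27 in resting cells, 0.18 in activated cells and 0.65 in lymphomas. The widest were Lig4, from 5.33 in mPTCL 6 to 9.94 in mPTCL 3, a 24.4-fold range, and Xrcc6, from 9.01 in mPTCL 5 to 13.46 in mPTCL 3, a 21.9-fold range with a median of 11.21. Both genes of end joining were highest in mPTCL 3 and next highest in mPTCL 4, at 12.52 for Xrcc6 and 8.56 for Lig4. The second probe set of Xrcc6 was also highest in mPTCL 3 (9.11) and mPTCL 4 (8.66), where the other 7 lymphomas lay between 5.77 and 7.10. These are the same 2 lymphomas in which Cd3e was at or near the floor, and the part of that difference in the levels of Xrcc6 and Lig4 was not tested.

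Neither gene passed the test. Xrcc6 differed by 1.33 from activated cells (95% interval -0.12 to 2.78) and by 1.42 from resting cells (-0.04 to 2.88), though 8 of 9 lymphomas lay above all 6 normal arrays. It was called higher in both comparisons without mPTCL 5 (1.61 and 1.70, adjusted p = 0.0435 and 0.0427). On the probe sets used, the narrowest genes were Trp53bp1, with a 1.49-fold range over the 9 lymphomas, Pms2 with 1.72-fold, Topbp1 with 1.84-fold and Parp2 with 1.85-fold. Another probe set of Trp53bp1 ran from 5.00, the floor, in mPTCL 6 to 8.17 in mPTCL 5. The lymphoma lowest for most genes was mPTCL 4, for 19 of 36, followed by mPTCL 5 for 7, and mPTCL 9 was highest for 11 and mPTCL 2 for 7.

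The dividing cell marker mean was also lowest in mPTCL 4 (9.48) and was highest in mPTCL 2 (12.27). In a fit of every tested gene on that mean within the 9 lymphomas, 8 of the 36 genes had a positive slope at an adjusted p under 0.05 and 0 a negative one, against 1.07% and 0.168% of all tested genes. No repair gene is among the markers. The 8 genes were Brca1, Rad51ap1, Rad54l, Rad54b and Exo1 in recombination, Fancd2 and Fanci in the Fanconi anaemia pathway, and Clspn. All of them had also been called higher in activated cells, as had 17 of the 36 genes and 8.45% of all tested genes. How many of all tested genes with a positive slope were also called there was not counted.

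Rad54b had the steepest slope, 1.34 ± 0.15 (SE) log2 units per log2 unit of the marker mean (adjusted p = 0.00517, limma), with r = 0.984 (exact permutation p = 1.65e-05) and rho = 0.967 (exact permutation p = 0.000165). Brca1 had a slope of 0.70 ± 0.11 (adjusted p = 0.0189, r = 0.957, rho = 0.967) and Clspn one of 0.93 ± 0.14 (adjusted p = 0.0139, r = 0.942, rho = 0.933). Exo1 and Rad54l had slopes of 1.07 ± 0.18 and 1.05 ± 0.18, Rad51ap1 of 1.04 ± 0.19, Fancd2 of 0.93 ± 0.19 and Fanci of 0.88 ± 0.17. Permutation tests were 2-sided and run on r and rho for 36 genes and for the other marker lists, and their p are not corrected. The fit's adjusted p over all tested genes belongs to a different test, that of the slope.

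The calls rest on few lymphomas. Without the 2 farthest from the median of the marker mean, mPTCL 4 and 5, 0 of the 36 genes and 0 of all tested genes were called, while r was still 0.968 for Rad54b, 0.924 for Brca1, 0.939 for Rad54l and 0.89 for Clspn over 7 lymphomas. The number of genes called was 0 without mPTCL 4, 1 without mPTCL 2, 2 without mPTCL 8, 4 without mPTCL 1 or 9, 5 without mPTCL 3, and 2 with Mki67 alone in place of the mean. Stromal and endothelial markers, 8 on the array, averaged 5.42 to 7.86 in lymphomas, 6.31 to 6.34 in resting cells and 7.52 to 7.98 in activated cells. Among lymphomas their mean ran against the marker mean (r = -0.803, exact permutation p = 0.00761) and was highest in mPTCL 4, where neutrophil and macrophage markers were high as well. The part of any of these in these slopes was not tested.

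Some uncalled genes also had steep slopes. Bard1 had a slope of 1.02 ± 0.23 (adjusted p = 0.0642, r = 0.871), above those of the called Brca1, Clspn, Fancd2 and Fanci, and Polq one of 0.72 ± 0.17 (adjusted p = 0.0831, r = 0.911), Brip1 0.66 ± 0.22 (adjusted p = 0.165) and Nbn 0.62 ± 0.17 (adjusted p = 0.114). Slopes near 0 were 0.00 ± 0.17 for Prkdc and 0.00 ± 0.12 for Parp2, with r = 0.00549 and 0.00551, and -0.04 ± 0.18 for Atr. Chek1 had a slope of 0.41 ± 0.19 (adjusted p = 0.28), r = 0.6 and r = 0.0912 without mPTCL 4, so the one gene called between lymphomas and activated cells was not among those called on the marker mean. H2afx and Msh6, both higher in activated cells, had slopes of 0.30 ± 0.19 and 0.25 ± 0.15 and were not called, nor were Brca2 at 0.39 ± 0.17 and Blm at 0.29 ± 0.13.

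**Figure D4:**
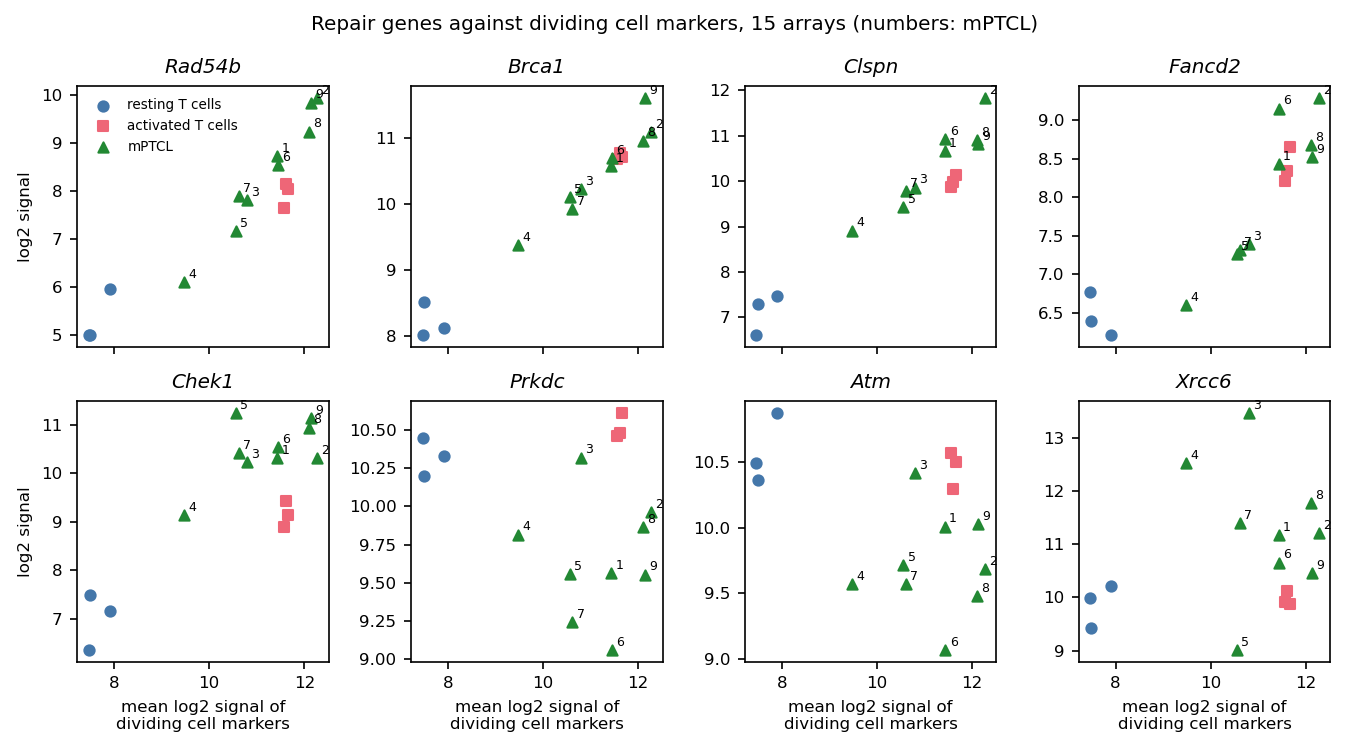
Log2 signal of 8 repair and checkpoint genes (y axis) against the mean log2 signal of 9 dividing cell markers (x axis), 1 point per array for 3 resting, 3 activated and 9 lymphoma samples, the latter numbered. Rad54b, Brca1, Clspn and Fancd2 climb with the marker mean among the lymphomas, Prkdc, Atm and Xrcc6 do not, and Chek1 sits above the activated arrays in all lymphomas but mPTCL 4.

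The other genes of the same pathways were followed in 98 genes listed by role, 89 of them on the array and 88 tested. In activated against resting cells 9 (10.2%) were called higher and 2 (2.27%) lower, with a median difference of 0.06. These shares lie near the 8.45% and 4.23% of all tested genes. The increases were 4 of 16 tested in homologous recombination, 1 of 9 in the Fanconi anaemia pathway, 2 of 13 in base excision repair and 2 of 20 in the checkpoint and chromatin response. None of 7 in end joining, 3 in mismatch repair, 12 in nucleotide excision repair and 8 in translesion synthesis was called in either direction. Eme1 and Gen1, nucleases that cut recombination intermediates, were 2.49 and 2.01 higher, Ube2t, the ubiquitin carrier of the Fanconi pathway, 1.25, Neil3, a glycosylase, 3.35, Lig1, the ligase of replication, 1.69, and the phosphatases Cdc25c and Cdc25b 3.31 and 2.12. The decreases were those of Rad52, a recombination mediator, which fell by 1.58, and of Apex1, the main abasic site nuclease, which fell by 1.28.

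In lymphomas against resting cells 15 of the 88 (17%) were called higher and 5 (5.68%) lower, against 7.03% and 6.84% of all tested genes. Higher were 3 in recombination, 1 each in the Fanconi anaemia pathway and end joining, 4 in base excision repair, 4 in the checkpoint and chromatin response and 2 in translesion synthesis, among them Dna2 by 2.49, Ube2t by 2.00, Neil3 by 2.45, Cdc25c by 3.52 and Polh by 1.31. Lower were Rad52 by 2.83, 2 end joining genes (Xrcc4, the ligase partner, by 1.09, and the polymerase Polm, adjusted p = 0.0185), the nuclease Ercc5 by 1.23 and the polymerase Poli by 1.29. In lymphomas against activated cells 8 (9.09%) were called higher and 5 (5.68%) lower, shares near the 7.04% and 8.28% of all tested genes. Of the 8, 4 were in base excision repair, with Ung, the uracil glycosylase, 2.36 higher (adjusted p = 0.00543) and Apex1 2.17 higher (adjusted p = 0.000348). The 5 lower genes were Rad52 at -1.25, Xrcc4 at -1.07, Cdc25b at -1.92, Tlk1 at -1.17 and the polymerase Polk at -1.81.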

How the data were processed

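Each of the 15 samples was hybridised to 1 oligonucleotide array. The deposited intensity values, on a linear scale, were computed by the authors with MAS5 in Affymetrix Expression Console, per the submitters' processing notes, with version 1.1 named for the lymphomas and none for the normal cells. For the normal cells alone, a 3′ IVT amplification kit is named in the labels' protocols. Since any batch follows this split, batch and group cannot be told apart. The 2% trimmed mean was 500 in every array, which ties a gene's level to all others on its array. Median signals were 91.7 to 99.2 in resting cells, 110 to 118 in activated cells and 68.0 to 116 in lymphomas. The number of arrays limits the precision.

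Probe sets with 1 symbol in the platform annotation were used (34958; 932 had several and 9211 none), and 34754 symbols were updated by gene identifier. After the floor of 32 and log2, genes that passed the filter were tested with limma 3.58.1 in R 4.3.3 (lmFit, eBayes with trend) on the arrays of the groups compared. Intervals are the model's 95% intervals, and folds against arrays at the floor are lower bounds. Within lymphomas each gene was fitted on the marker mean. Tests of r and rho were by 2-sided exact permutation in Python 3.11.15, with ranks from scipy 1.17.1. The fits were tested on simulated data. The genes and lists were chosen with earlier results of these data known.

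Values by sample were given for the 6 called genes with the largest change in each comparison, any gene called between lymphomas and activated cells, and 13 set genes. Of the other genes of each list, up to 2 called ones with the largest change were named per comparison, and Rad52, Apex1 and Xrcc4 were also named where they fell outside this rule, after their values were seen. Promoters came from the RefSeq table.

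Alternatives were a floor of 16 or 64, adding 16 in place of a floor, dropping the filter or setting it at 200, quantile normalisation, median centring, averaging probe sets, using no probe set shared between transcripts, 1 fit for all arrays, a prior with no trend, array weights, no fold minimum, a replicate block, leaving out each array, and leaving out lymphomas whose neutrophil or B cell marker mean exceeded the highest normal array by more than 2 or 1 log2 units.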

Additional observations from a re-analysis of the deposited data

Results flagged for a closer look

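In 2 of 36 genes, each tested over the 9 lymphomas, 1 lymphoma stood apart from the rest by the gap to its neighbour relative to the whole range. Chek1 was lowest in mPTCL 4, at 9.13 on the log2 scale, with the next lymphoma at 10.23. Fanca was lowest in mPTCL 7, at 8.44, with the next at 9.18. Chance flags about 1 in 20 groups in this way, which for 36 genes is close to the 2 found.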

How the results depend on the processing

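Of 3193 values for single genes under the alternatives, 3061 kept their side of the threshold, 87 lost a call and 45 gained one. The direction of a called gene was reversed in 0 cases. Genes that were not called were not checked for direction in this count. Some changed sign, as Atm did on activation, with values from -0.40 to 0.04. The calls of 8 of 17 genes in activated cells (Brca1, Brip1, Rad51ap1, Rad54l, Blm, H2afx, Chek1 and Clspn) and of 8 of 14 in lymphomas against resting cells (Brca1, Brca2, Rad51ap1, Blm, Exo1, Chek1, Topbp1 and Clspn) were kept under every alternative run. Atr, which was not called, lay above resting cells by 0.31 with the mean of its probe sets instead of below them.

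Against the main counts of 17, 14, 1 and 8 genes higher, the fit of all 15 arrays gave 10 in activated against resting cells and 2 in lymphomas against activated cells. In the latter, quantile normalisation and median centring gave 2 each, the mean of probe sets and the removal of probe sets matching several transcripts 0 each, array weights 6, and the removal of lymphomas rich in neutrophil or B cell markers 3 and 2. Genes called lower numbered 1, 1 and 2 by the adjusted p alone and 0, 1 and 1 with the mean of probe sets, where the main count was 0. Leaving out 1 array gave 16 to 18, 9 to 16, 0 to 3 and 0 to 7 genes higher in the 4 analyses. For the slope, median centring gave 13, Mki67 alone 2 and the removal of the 2 farthest lymphomas 0. Over all tested genes, where the main counts were 1006 higher and 504 lower in activated cells, the fit of all 15 arrays gave 295 and 102, and array weights gave 1371 and 1344 in lymphomas against resting cells (837 and 814) and 1303 and 1643 against activated cells (838 and 986). Leaving out an array also lowers the number of arrays, and the cause of these changes was not tested.

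With the replicate block, 17 genes were called higher in activated cells, as without it (946 of all genes higher and 485 lower). Arrays with the same number did not deviate together (correlations of -0.0112, 0.0495 and -0.0072). These values cannot show whether resting and activated samples of the same number share an animal, which the labels do not state. Lymphomas and normal cells are not paired.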

Other observations

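Of the 88 other repair genes, Rad52 and Apex1 were the only ones called lower on activation. Rad52 was called lower in all 3 comparisons, at 10.63 in resting cells, 9.05 in activated cells and 7.80 in lymphomas on the log2 scale (group means). Apex1 averaged 12.77, 11.49 and 13.66 in the same order, so it was called lower on activation and higher in lymphomas than in activated cells. Rif1, which works with Trp53bp1 to shield broken ends, was 1.38 higher in lymphomas than in activated cells (adjusted p = 0.00223, limma) without overlap. Trp53bp1 itself differed by 0.18 (95% interval -0.17 to 0.54) on the probe set used. Its other 5 probe sets differed by -0.73, -0.91, -0.47, -0.61 and 0.52. Tipin, of the replication fork protection complex, was called higher in lymphomas against both normal groups (1.74 and 1.12), and its partner Timeless against resting cells (1.32) but not against activated cells. All of these were singled out after their values were seen.

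Wee1, the kinase that restrains entry into mitosis, was 1.92 higher in lymphomas than in resting cells (adjusted p = 0.0013). Topbp1 was read from a probe set that differed by 0.12 between lymphomas and activated cells, while its dimmer second probe set, at the floor in 4 arrays, differed by 1.79. The second probe set of Fanca, at the floor in 8 arrays, showed none of the increase of the first (-0.06 between lymphomas and resting cells).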
